A study of Mus musculus with 12 samples.

Results

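The genes described here are those of the major histocompatibility complex (MHC, named H2 in the mouse) and of antigen presentation, measured in the livers of 12 male C57BL/6 mice on 1-colour arrays of 60-base probes. The set holds every non-control probe whose name in the scanner files begins with H2- or is Cd74, B2m, C2ta, Ciita, Tapbp, Tap2, Ctss, Cd80, Cd86 or Cd1d1, which gave 69 probes of 41174 for 45 genes of 27670 gene names. The array design still carries Ciita under its older name C2ta, and 38 of the 45 genes lie on chromosome 17 in the RefSeq table of GRCm38.p6. The mice were SIRT1+/+ (WT) or SIRT1+/- (Het) and had been kept for 34 weeks on either a low-fat or a high-fat diet, with 3 mice and 3 arrays in each of the 4 groups. The labels give neither how the SIRT1 allele was altered nor the age of the mice at the start of the diets. Each array held the RNA of a whole liver sample, so fewer cells of a type and less RNA per cell cannot be told apart.

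MHC class I molecules sit on nearly all cells and show peptides made inside the cell to CD8 T cells. Their heavy chains pair with beta-2-microglobulin (B2m) in the endoplasmic reticulum, where the TAP transporter brings in peptides and tapasin (Tapbp) helps to load them. MHC class II molecules show peptides from swallowed proteins to CD4 T cells and are made mostly by macrophages, dendritic cells and B cells, with the liver's Kupffer cells among them. Their alpha and beta chains travel with the invariant chain (Cd74), cathepsin S (Ctss) cuts that chain, H2-DM removes its last fragment, and the coactivator CIITA switches the whole group of class II genes on.

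Of the 45 genes, 33 had a probe that cleared background on all 3 arrays of some group and were tested, and 32 of these were well above background on all 12 arrays. The other tested gene, H2-T24, was well above background on 10 of 12. The 12 genes not tested were Cd80, H2-Ea, H2-Ob, H2-T3, H2-M1, H2-M9, H2-M11 and 5 of the H2-M10 genes. Of these, 8 were well above background on no array, 3 on 1 array and Cd80, a costimulatory ligand, on 5. H2-Ea was among the 8, and its log2 levels lay between -8.31 and -6.98. RefSeq lists it as a transcribed pseudogene, and C57BL/6 mice are known not to express it. No probe of the set was saturated. For a gene with several probes, as 16 genes had, the brightest one stands for the gene.

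The probe sequences are shown because class I genes are close copies of one another and a class I probe can also bind the RNA of its neighbours. Those of the class II chains are shown because these genes changed most by their brightest probes. In the first pair below, capitals mark the run of 35 bases that the probes named for H2-Q5 and H2-Q10 share exactly. The array design lists the second of them for H2-Bl, H2-Q1, H2-Q10 and H2-Q6. The probes lie on chromosome 17, with positions on mm7 from the scanner files: H2-Q5 chr17:34255077-34255511, H2-Q10 chr17:33574106-33574165, H2-D1 chr17:33361850-33362082, H2-Aa chr17:32362310-32362369, H2-Eb1 chr17:32392430-32392891 and H2-Ea chr17:32421735-32421794. The H2-Q5 position is beside that of the H2-T10 probe (chr17:34262303-34262362) and outside the stretch of the other H2-Q probes. RefSeq places H2-Q5 between H2-Q2 and H2-Q10, so which gene this probe reads is not settled.
H2-Q5: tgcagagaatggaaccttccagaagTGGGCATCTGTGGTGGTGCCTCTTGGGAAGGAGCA
H2-Q10: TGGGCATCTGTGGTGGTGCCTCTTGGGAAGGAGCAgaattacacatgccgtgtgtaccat
H2-D1: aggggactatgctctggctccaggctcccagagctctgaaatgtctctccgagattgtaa
H2-Aa: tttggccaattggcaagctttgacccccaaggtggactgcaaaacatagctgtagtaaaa
H2-Eb1: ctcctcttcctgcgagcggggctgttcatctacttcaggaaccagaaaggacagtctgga
H2-Ea: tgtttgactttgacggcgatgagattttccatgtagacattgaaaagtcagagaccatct

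Of the 2346 pairs among the 69 probes, 5 shared a run of 15 or more bases, and 4 of these pairs joined probes of different genes. All 4 were class I pairs. Besides H2-Q5 with H2-Q10 they were H2-Q7 with H2-T23 (28 bases), H2-K1 with H2-Q10 (20 bases) and H2-K1 with H2-Bl (16 bases). In all, 11 probes of the set are listed by the design for 2 or more RefSeq entries, the H2-D1 probe for 3. Class I values below therefore belong to a probe, and the gene name says only what the array calls it.

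All values are log2 levels, the log2 of a probe's processed intensity minus the log2 of the 75th percentile of its array, so levels of different genes are not set against each other. The 75th percentile ranged from 975.1 to 2006.4 intensity units over the 12 arrays. Sirt1, the altered gene, had log2 levels of -0.73 to -0.23 in Het livers and -0.37 to 0.23 in WT livers. Within each diet all 3 Het values were below all 3 WT values, with differences of -0.44 ± 0.13 in high-fat and -0.43 ± 0.13 in low-fat livers (SE, adjusted p by limma 0.446 and 1.0). High-fat and low-fat arrays were scanned on different days and lay on different slides, so diet and scan day cannot be told apart. WT low-fat replicate 1 stood apart in B cell markers, with Ms4a1 at -0.38 against -3.17 to -2.29 and Cd79b at 0.58 against -1.20 to -0.44 on the other 11 arrays. The T cell markers Cd3d (-2.11), Cd3g (-2.27) and Lck (-1.95) were also highest on that array. The T cell markers Cd3e, Cd4 and Cd8a and the B cell marker Cd79a were not. Class II results are given with and without this array, which was singled out after its values were seen. The limma test was adjusted over 17042 genes by the Benjamini-Hochberg method, and "rose" or "fell" marks an adjusted p under 0.05.

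With 6 high-fat against 6 low-fat livers over both genotypes, 10 of the 33 tested genes rose and 0 fell, which is 30.3% of them. Among all genes tested 30.2% changed in this comparison, 13.4% higher and 16.7% lower. The share that changed was thus near the background, and the members that changed were all higher. The high-fat mean was above the low-fat mean for 26 of the 33 genes (78.8%), against 46.8% of all genes tested, and the median difference was 0.24 on the log2 scale, against -0.03. By role, the class II chains gave 3 of 3 higher, class II loading and regulation 2 of 7, the K and D class I genes 2 of 3, the other class I genes 2 of 13, and B2m and the class I loading genes 1 of 3. Cd86 and Cd1d1, and 2 genes that bear an H2 name only by position (H2-Ke6, a steroid dehydrogenase gene, and Pfdn6, a prefoldin subunit gene), gave 0 of 2 each.

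**Figure D1:**
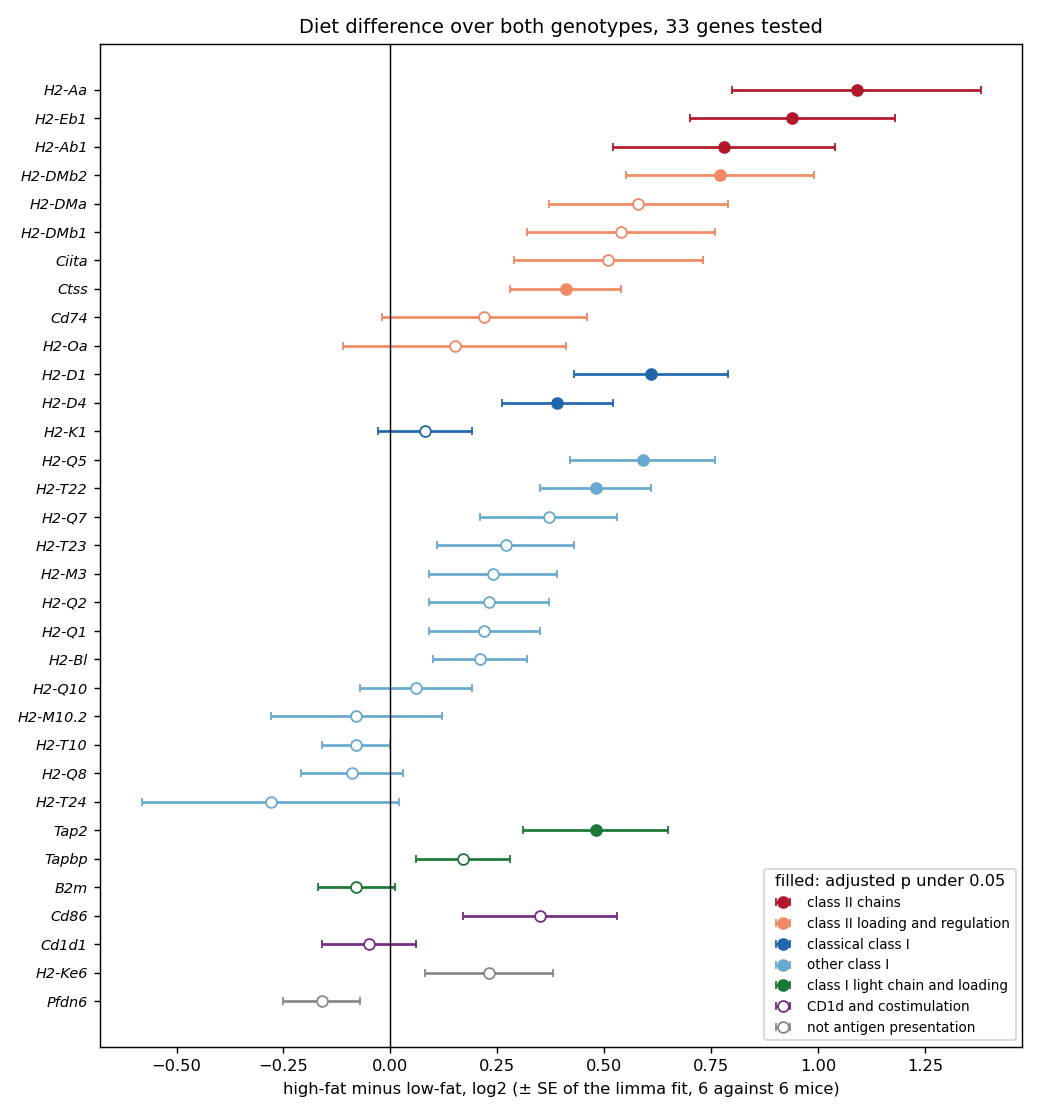
Difference between 6 high-fat and 6 low-fat livers for each of the 33 genes tested, on the log2 scale, with the SE of the limma fit and filled points for an adjusted p under 0.05. The 3 class II chains lie farthest to the right, from 0.78 to 1.09, and none of the 10 filled points lies below 0.

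By brightest probe, the class II chains H2-Aa (alpha chain of I-A), H2-Ab1 (its beta chain) and H2-Eb1 (beta chain of I-E) were the members with the largest increases on the high-fat diet. H2-Ea, the alpha chain gene of I-E, was well above background on no array, so H2-Eb1 values speak of RNA and not of I-E molecules. The H2-Aa log2 levels were 1.32, 0.89 and 0.57 in WT and 1.97, 0.87 and 1.16 in Het livers after high-fat feeding. In mice on the low-fat diet they were 0.65, 0.51 and -0.79 in WT and -0.57, 0.04 and 0.41 in Het livers. The ranges overlapped at 1 point, since WT low-fat replicate 1 (0.65) was above WT high-fat replicate 3 (0.57). H2-Aa rose by 1.09 ± 0.29 (SE), 2.13-fold, with an adjusted p of 0.0193 by limma.

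H2-Eb1 levels were 1.68, 1.25 and 0.89 in WT and 2.31, 1.22 and 1.60 in Het high-fat livers. They were 1.14, 0.85 and 0.02 in WT and 0.08, 0.52 and 0.69 in Het low-fat livers. Again only WT low-fat replicate 1 (1.14) lay inside the high-fat range. The increase of H2-Eb1 was 0.94 ± 0.24, 1.92-fold (adjusted p = 0.0157). For H2-Ab1, high-fat livers lay between 3.12 and 4.39 (median 3.45) and low-fat livers between 2.22 and 3.42 (median 2.89). H2-Ab1 rose by 0.78 ± 0.26, 1.72-fold, with an adjusted p of 0.0424. The lowest class II chain levels of all 12 arrays were those of WT low-fat replicate 3 and Het low-fat replicate 1, and the highest those of Het high-fat replicate 1.

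The increases of H2-Aa and H2-Eb1 passed without any single array, whereas that of H2-Ab1 did not pass without WT high-fat replicate 1 or 2, Het high-fat replicate 1, WT low-fat replicate 2 or 3, or Het low-fat replicate 1 or 2 (0.61 to 0.83, adjusted p 0.05 to 0.0967). Other probes of these genes gave like values. All 4 H2-Ab1 probes rose, by 0.78, 0.84, 0.95 and 1.10, and both H2-Aa probes rose, by 0.89 and 1.09, when every probe was tested on its own. The H2-Ab1 probe with the difference of 1.10 is printed on 10 spots per array, and the SD over those spots was 0.02 to 0.05 on the log2 scale within an array.

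**Figure D2:**
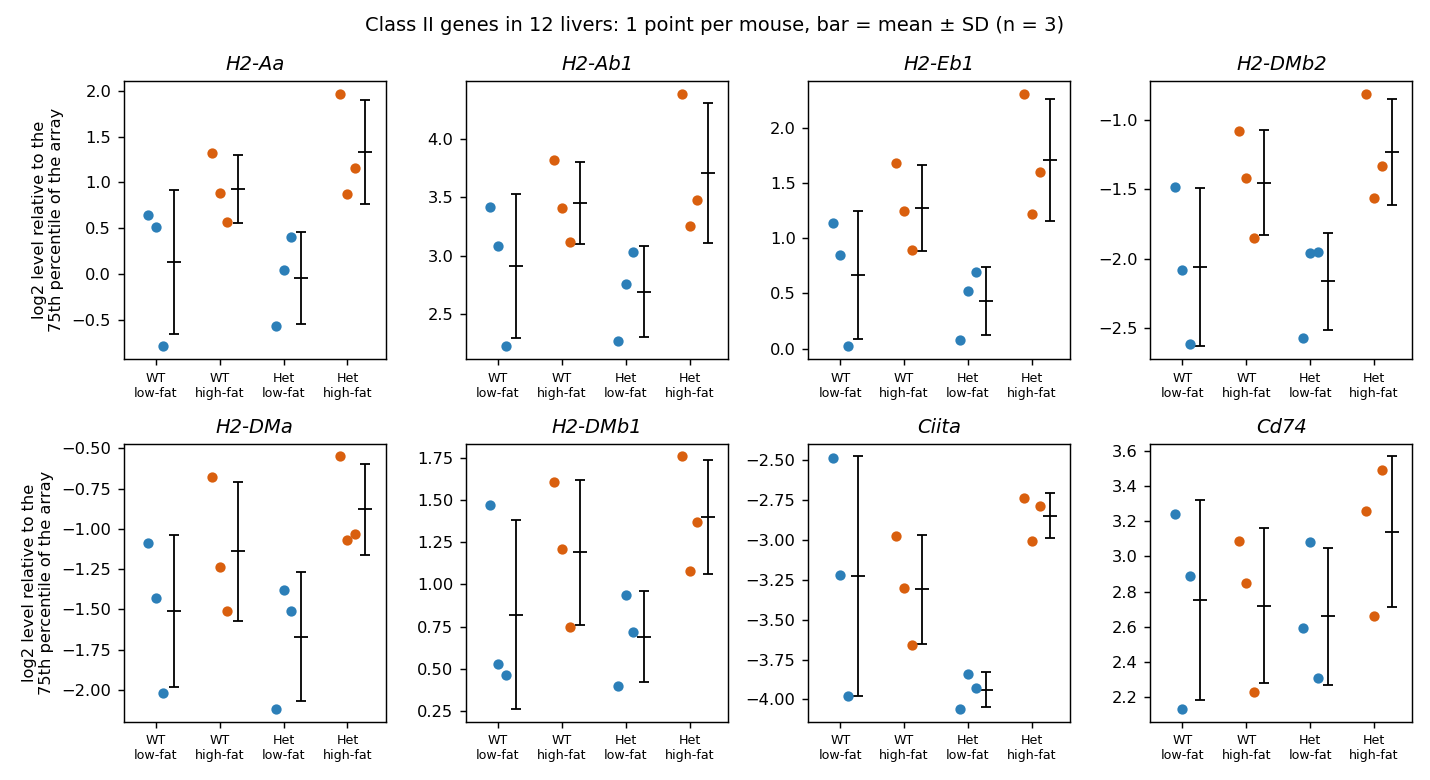
Log2 levels of 8 class II genes in the 12 livers, 1 point per mouse, with the mean and SD of each group of 3, low-fat in blue and high-fat in orange. The Het groups do not overlap for any of the genes shown except Cd74, while WT low-fat replicate 1 lies at or near the WT high-fat points for most genes.

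Of the class II loading and regulation genes, H2-DMb2 and Ctss rose over both genotypes, and all 7 had a higher mean on the high-fat diet. H2-DMb2, 1 of the beta chains of the H2-DM peptide editor, was between -1.85 and -0.81 (median -1.37) in high-fat livers and between -2.61 and -1.48 (median -2.02) in low-fat livers. It rose by 0.77 ± 0.22, 1.70-fold (adjusted p = 0.0254), a call that did not hold when replicate 1 of WT high-fat, Het high-fat or Het low-fat, or replicate 3 of WT low-fat, was left out (0.63 to 0.68, adjusted p 0.0527 to 0.0618). The array design lists this probe for H2-DMb1 as well. The probe listed for H2-DMb2 alone was well above background on 6 arrays and differed by -0.09 ± 0.33.

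Ctss was between 4.47 and 4.95 (median 4.75) on the high-fat diet and between 4.04 and 4.76 (median 4.26) on the low-fat diet. The increase of Ctss was 0.41 ± 0.13, 1.33-fold (adjusted p = 0.0393), and it did not pass without WT high-fat replicate 1 or 2, replicate 1 or 3 of Het high-fat, WT low-fat replicate 2 or 3, or Het low-fat replicate 1 or 3 (0.35 to 0.40, adjusted p 0.0666 to 0.0923). The partner chains H2-DMa (0.58 ± 0.21, adjusted p = 0.0579) and H2-DMb1 (0.54 ± 0.22, adjusted p = 0.0801) did not pass.

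Cd74, the invariant chain that escorts the class II chains, did not pass. Its levels were 3.09, 2.85 and 2.23 in WT and 3.26, 2.66 and 3.49 in Het high-fat livers, and 3.24, 2.13 and 2.89 in WT and 2.59, 3.08 and 2.31 in Het low-fat livers. The ranges of the diets overlapped nearly in full, and the difference was 0.22 ± 0.24 (adjusted p = 0.496). H2-Oa, which with H2-Ob forms the inhibitor of H2-DM, differed by 0.15 ± 0.26 (adjusted p = 0.681), and its highest level, -1.94, was that of WT low-fat replicate 1.

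Ciita, the class II coactivator, passed in the Het mice and not in the comparison over both genotypes (0.51 ± 0.22, adjusted p = 0.1). Its levels in Het livers were -2.74, -3.01 and -2.79 on the high-fat diet and -4.06, -3.84 and -3.93 on the low-fat diet. These groups lay far apart, with an SD of 0.14 and 0.11. In WT livers the levels were -2.98, -3.30 and -3.66 on the high-fat and -2.49, -3.22 and -3.98 on the low-fat diet, and the low-fat values spread over the whole range of the high-fat ones. Ciita rose by 1.10 ± 0.31 in Het (2.14-fold, adjusted p = 0.0375) and differed by -0.08 ± 0.31 in WT (adjusted p = 0.888). The difference between these effects, 1.18 ± 0.44, had an unadjusted p of 0.0211 and an adjusted p of 0.989, so it did not pass. The call in Het did not hold without WT high-fat replicate 2 or any 1 of the 6 Het arrays (1.04 to 1.18, adjusted p 0.0515 to 0.118).

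Without WT low-fat replicate 1, 9 of the 10 class II genes rose over both genotypes by limma, against 5 with it, and Cd74 (0.35 ± 0.24, adjusted p = 0.308) was the exception. That array held the highest low-fat level of each of the 10 genes, so leaving it out raises every one of these diet differences. The shares of all genes that passed without it are not given, so the counts in this paragraph have no background beside them. Ciita then rose by 0.69 ± 0.17 (adjusted p = 0.0168), H2-DMa by 0.68 ± 0.21 (0.0414), H2-DMb1 by 0.71 ± 0.18 (0.0238) and H2-Oa by 0.42 ± 0.12 (0.0342). In WT mice alone the 10 differences were then between 0.21 and 1.06, and 0 passed, with 4 at an unadjusted p under 0.05. The part of B cells or other lymphocytes in the class II levels of that array was not tested.

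Sequences upstream of class II genes are shown because this group is known to be switched together through shared boxes, the X boxes bound by RFX and CREB and the Y box bound by NF-Y, which CIITA joins. Promoters are RefSeq entries on GRCm38.p6 that run from 250 bases before to 50 bases after a start site, and 31 of the 45 genes had one, but not H2-Ab1, Cd74 or Ciita. The letters TGATTGG (a Y box core, searched on both strands) were in 6 of the 7 promoters of class II genes with an H2 name. These were H2-Aa, H2-Eb1, H2-DMb1, H2-DMb2, H2-Oa and H2-Ob, and 7.82% of all 32851 promoters held the letters. The same letters were also in 13 class I promoters. The letters GATGATG (where the X box meets the X2 box, both strands) were in those of H2-Eb1, H2-DMb1 and H2-DMb2 and in 3.48% of all promoters. Ctss, counted with the class II genes elsewhere, is not among the 7 and was not among the genes with either motif. Both motifs are in capitals, 5′ to 3′ along the gene, at chr17:34287857-34287919 (minus strand), chr17:34305760-34305822, chr17:34153082-34153144 and chr17:34145111-34145173 (plus strand) in the order of the lines.
H2-Aa: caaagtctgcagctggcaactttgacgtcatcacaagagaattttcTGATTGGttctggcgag
H2-Eb1: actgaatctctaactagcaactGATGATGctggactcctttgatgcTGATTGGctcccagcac
H2-DMb1: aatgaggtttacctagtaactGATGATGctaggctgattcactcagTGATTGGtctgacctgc
H2-DMb2: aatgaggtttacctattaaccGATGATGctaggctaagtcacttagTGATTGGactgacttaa

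A match is a description of the letters and says nothing about binding. H2-Ob, whose promoter holds TGATTGG, was well above background on 1 array, and H2-DMb1, which has both motifs, had a difference of 0.54 ± 0.22 that did not pass.

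Of the K and D class I genes, H2-D1 and H2-D4 rose on the high-fat diet and H2-K1 did not, by the brightest probe of each. H2-D1, which encodes a classical heavy chain, had log2 levels of 6.85, 6.39 and 6.82 in WT and 7.10, 7.07 and 6.46 in Het high-fat livers. On the low-fat diet the levels were 5.99, 6.65 and 5.92 in WT and 5.95, 6.00 and 6.51 in Het livers. WT low-fat replicate 2 and Het low-fat replicate 3 lay inside the high-fat range. H2-D1 rose by 0.61 ± 0.18, 1.53-fold (adjusted p = 0.0261). H2-D4, which RefSeq lists as a transcribed pseudogene, rose by 0.39 ± 0.13 (adjusted p = 0.0389). H2-K1, the other classical heavy chain, was between 7.82 and 8.27 in high-fat and between 7.76 and 8.22 in low-fat livers and differed by 0.08 ± 0.11 (adjusted p = 0.592). These values are those of its brightest probe, and another H2-K1 probe rose, as given below. The array design lists no RefSeq entry for any H2-K1 probe.

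The H2-K1 and H2-D1 promoters are shown because they are nearly identical where class I genes are known to take up NF-kB and interferon signals. The brightest probe passed for H2-D1 and not for H2-K1, but another H2-K1 probe passed, and a difference between the genes was not tested. Capitals mark GGGATTCCC, the core of the class I NF-kB element, and TTTCACTTC, part of the interferon response element, both searched on both strands. H2-Q7 holds the first too, as do 0.353% of all promoters. The second was also found in H2-M3, H2-Q7 and H2-Q10 and is held by 0.505% of all promoters. The windows are chr17:34000419-34000464 (minus strand) and chr17:35262917-35262962 (plus strand) on GRCm38.p6.
H2-K1: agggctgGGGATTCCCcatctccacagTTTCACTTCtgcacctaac
H2-D1: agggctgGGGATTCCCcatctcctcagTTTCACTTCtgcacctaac

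Among the other class I genes, H2-T22 and H2-Q5 rose. H2-T22, a nonclassical molecule recognised by some gamma-delta T cells, had levels of 3.71, 3.53 and 3.59 in WT and 3.73, 3.82 and 3.26 in Het high-fat livers, and 3.07, 3.41 and 2.92 in WT and 2.98, 3.0 and 3.37 in Het low-fat livers. The WT groups did not overlap, and in Het the lowest high-fat value (3.26) was below the highest low-fat value (3.37). H2-T22 rose by 0.48 ± 0.13, 1.39-fold (adjusted p = 0.0197), and passed without any single array. The H2-Q5 probe, whose 35 shared bases are shown above, was between 7.21 and 7.93 (median 7.80) in high-fat and between 6.81 and 7.47 (median 6.96) in low-fat livers and rose by 0.59 ± 0.17 (adjusted p = 0.0262). Like H2-D4, H2-Q5 is listed by RefSeq as a transcribed pseudogene.

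The calls of H2-D1, H2-D4 and H2-Q5 were each lost without WT high-fat replicate 1 or 3, replicate 1 or 2 of Het high-fat, WT low-fat replicate 1 or 3, or Het low-fat replicate 1 or 2. Without 1 of these arrays H2-D1 differed by 0.55 to 0.58 (adjusted p 0.0571 to 0.0633), H2-D4 by 0.32 to 0.40 (0.0641 to 0.0895) and H2-Q5 by 0.52 to 0.57 (0.0533 to 0.0635).

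The 11 other class I genes did not pass. H2-Q7, which encodes a Qa-2 molecule, differed by 0.37 ± 0.16 (adjusted p = 0.0997), H2-T23, the Qa-1 ligand of the inhibitory CD94/NKG2A receptor, by 0.27 ± 0.16 (0.212), and H2-M3, which presents formylated bacterial peptides, by 0.24 ± 0.15 (0.267). H2-Q10, a secreted class I molecule made by the liver, differed by 0.06 ± 0.13 (adjusted p = 0.763). The differences of the 11 lay between -0.28 (H2-T24) and 0.37, and that of H2-Q10, like that of Cd1d1 below, changed sign under another scaling of the arrays, while those of H2-M10.2 and H2-T24 did so under normexp background correction.

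Levels of 9 of the 16 class I genes went with the overall brightness of the arrays, whereas 4 of the 16 passed for diet. The arrays fell into 6 dim ones, with a 75th percentile of 975.1 to 1370.5 intensity units, and 6 bright ones, with 1633.7 to 2006.4, and the dim class held 4 high-fat and 2 low-fat arrays, the bright class 2 and 4. For 12 of the 33 genes (36.4%) every bright array was below every dim array within both diets, against 8.13% of all genes tested. These 12 held all 3 K and D genes, 6 of the 13 other class I genes and none of the 10 class II genes. H2-D1 was lower on bright than on dim arrays by 0.54 within the high-fat and 0.61 within the low-fat diet, beside a diet difference of 0.61. The 75th percentile that sets the class is also subtracted from every level, so class and level are not independent measures. The part of array brightness in these results was not tested beyond the values given next.

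Within the brightness classes the diet difference of H2-D1 was 0.38 among dim and 0.46 among bright arrays, with all high-fat above all low-fat arrays in both. For H2-T22 these differences were 0.32 and 0.40, for H2-Q5 0.45 and 0.36, for H2-D4 0.29 and 0.26 and for H2-Q7 0.17 and 0.24, again without overlap in either class. H2-Aa (0.72 and 1.20), H2-Eb1 (0.75 and 0.99) and H2-DMb2 (0.69 and 0.78) were separated in both classes as well. These 8 genes are 24.2% of the 33, against 10.2% of all genes tested. With the brightness class as a block in the limma fit, a setting chosen only once the arrays had been looked at, H2-D1 rose by 0.42 ± 0.07 (adjusted p = 0.00198), H2-Q5 by 0.41 ± 0.07 (0.00275), H2-T22 by 0.36 ± 0.08 (0.0087), H2-D4 by 0.28 ± 0.08 (0.022) and H2-Q7 by 0.21 ± 0.07 (0.0495). H2-Aa (0.96 ± 0.30), H2-Eb1 (0.87 ± 0.26), H2-DMb2 (0.74 ± 0.25) and Ctss (0.45 ± 0.14) passed, with adjusted p of 0.0304 to 0.0439, and H2-Ab1 (0.68 ± 0.27, adjusted p = 0.0793) and Tap2 (0.35 ± 0.13, adjusted p = 0.0684) did not.

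**Figure D3:**
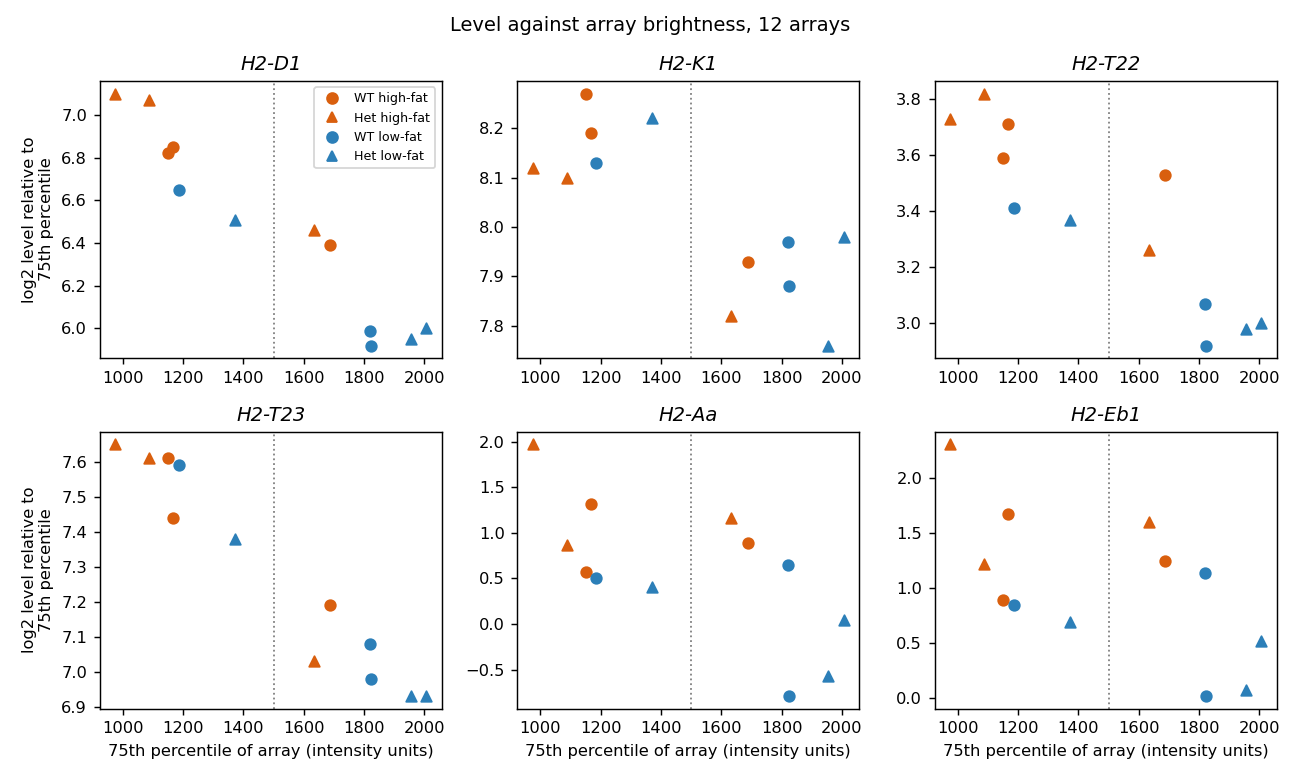
Log2 level of 6 genes against the 75th percentile intensity of each of the 12 arrays, circles for WT and triangles for Het, with a dotted line at 1500 between dim and bright arrays. The same percentile is subtracted from each level, so the axes are not independent. H2-D1 and H2-T22 fall from dim to bright arrays with the high-fat points above the low-fat ones on each side, H2-K1 and H2-T23 fall with little separation by diet, and H2-Aa and H2-Eb1 spread widely within each side.

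Probes of 1 class I gene did not always give 1 answer. When every kept probe was tested on its own, 21 of 54 probes of the set rose and 1 fell over both genotypes, where 29.4% of all 25296 probes changed. H2-K1 had a difference of 0.08 on its brightest probe, printed on 10 spots, and of 0.40 ± 0.15 (adjusted p = 0.0589) and 0.52 ± 0.16 (0.0336) on the other probes. H2-Q10 gave 0.06 on its brightest probe and 0.44, 0.50 and 0.56 on the others, of which the last 2 passed (adjusted p = 0.0481 and 0.016). The probe with 0.50 is the one printed above that shares 35 bases with H2-Q5. H2-Bl went the other way, with 0.21 ± 0.11 on its brightest probe. Its dimmest probe tended lower on the high-fat diet (-4.73 to -3.28) than on the low-fat diet (-3.72 to -3.0) and did not pass.

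H2-Q1 spread most. Its brightest probe differed by 0.22 ± 0.13 (adjusted p = 0.226), another rose by 0.55 ± 0.15 (0.022) and the last by 1.5 ± 0.29 (0.00411). The design lists the brightest probe for 1 RefSeq entry without a current gene name. It lists the next for H2-Q1, H2-Q2 and a further entry, and the last probe for none. The log2 levels of that last probe were 3.09, 2.83 and 3.18 in WT and 3.46, 3.08 and 3.32 in Het high-fat livers, and 1.60, 0.70 and 2.12 in WT and 2.18, 2.44 and 0.90 in Het low-fat livers. All 6 high-fat values were above all 6 low-fat values, which no brightest probe of the 33 genes showed and which 6.01% of all genes tested showed in this direction. It rose by 1.56 ± 0.40 in WT (adjusted p = 0.0484) and by 1.45 ± 0.40 in Het (0.0373). This probe was singled out after its values were seen.

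B2m, the light chain of class I molecules, did not rise. On its brightest probe high-fat livers lay between 6.74 and 7.12 and low-fat livers between 6.87 and 7.13, and the difference was -0.08 ± 0.09 (adjusted p = 0.526). A second B2m probe, printed on 10 spots, fell by 0.38 ± 0.12 (adjusted p = 0.0359), and the other differed by 0.01 ± 0.10. Cd86, a costimulatory ligand of T cells, gave 0.35 ± 0.18 (adjusted p = 0.171) on its brighter probe and rose by 0.66 ± 0.20 (adjusted p = 0.0319) on the other.

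**Figure D4:**
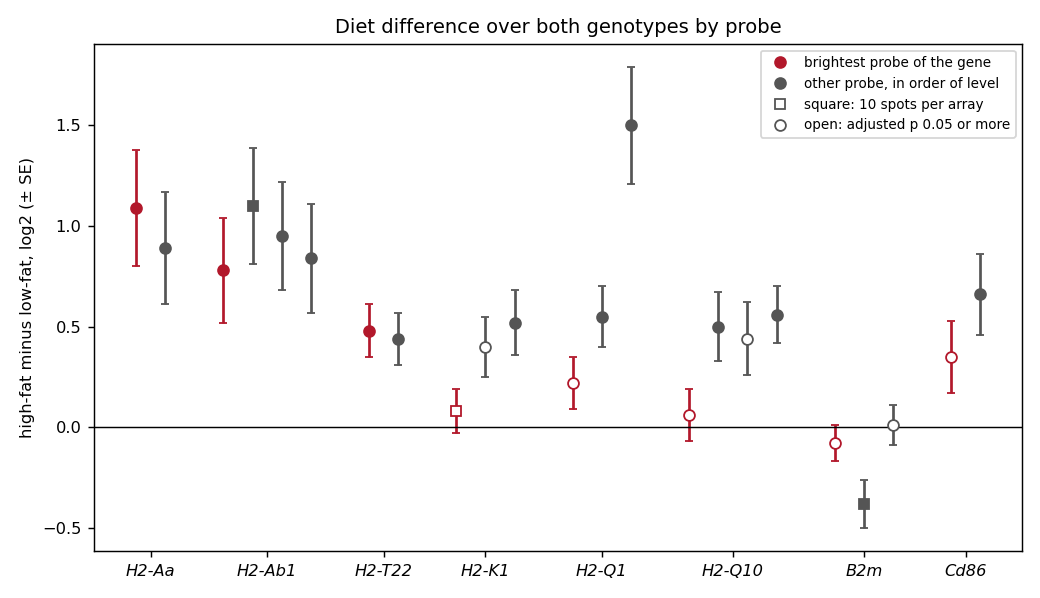
Difference between high-fat and low-fat livers over both genotypes for each kept probe of 8 genes, on the log2 scale with the SE of the limma fit, the brightest probe of a gene in red and squares for probes on 10 spots. All probes of H2-Aa, H2-Ab1 and H2-T22 are filled (adjusted p under 0.05), and the probes of H2-K1, H2-Q1, H2-Q10, B2m and Cd86 fall on both sides of the threshold.

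Of the class I loading genes, Tap2, a subunit of the peptide transporter, was between 1.65 and 2.03 (median 1.90) in high-fat and between 0.97 and 1.87 (median 1.33) in low-fat livers. The low-fat livers spread more widely, and their 4 lowest values were those of the 4 bright low-fat arrays. Tap2 rose by 0.48 ± 0.17, 1.39-fold (adjusted p = 0.0496), just under the threshold. It did not pass without any 1 of the 3 WT high-fat arrays, replicate 1 or 2 of Het high-fat, WT low-fat replicate 1 or 3, or Het low-fat replicate 1 or 2 (0.36 to 0.51, adjusted p 0.0693 to 0.112). Tapbp, the tapasin gene, differed by 0.17 ± 0.11 (adjusted p = 0.279) and Cd1d1, which presents lipids to natural killer T cells, by -0.05 ± 0.11 (0.784).

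Split by genotype, the diet comparison rests on 3 against 3 mice, and its arrays are those of the comparison above. In Het mice Ciita, H2-Aa and H2-Eb1 rose, 3 of 33 genes (9.09%), where 15.9% of all genes tested changed and 7.6% rose. H2-Aa rose by 1.37 ± 0.42 (2.59-fold, adjusted p = 0.0479) and H2-Eb1 by 1.28 ± 0.34 (2.43-fold, adjusted p = 0.0318). The H2-Eb1 call was lost without Het high-fat replicate 1 or 3 or any 1 of the 3 Het low-fat arrays (0.98 to 1.41, adjusted p 0.0521 to 0.122), and the H2-Aa call without any 1 array other than replicate 2 of Het high-fat or replicate 3 of WT low-fat (1.06 to 1.60, adjusted p 0.0501 to 0.174). H2-Aa in Het also did not pass with only the groups compared (adjusted p = 0.0587), the replicate block (0.064) or the brightness block (0.0606), H2-Eb1 did not pass with normexp background correction (0.0502), and none of the 3 passed with no filter on dim probes. In 9 of the 33 genes all 3 Het high-fat livers were above all 3 Het low-fat livers, which 17.4% of all genes tested showed, and 8 of the 9 were class II genes.

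In WT mice 0 of the 33 genes passed by limma, where 5.92% of all genes tested changed, and 2 had an unadjusted p under 0.05 (H2-T22 and H2-D4), as had 25.8% of all genes. The class II chains had differences of 0.80 ± 0.42 for H2-Aa, 0.60 ± 0.34 for H2-Eb1 and 0.54 ± 0.37 for H2-Ab1 in WT. The medians of the 33 genes were 0.23 in WT and 0.35 in Het, and those of all genes tested -0.05 and 0.

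The difference between the diet effects of the genotypes was tested as an interaction, and 0 of 33 genes passed, as did 0 of all genes tested (0.0%). H2-Aa had an interaction of 0.57 ± 0.59, H2-Eb1 of 0.68 ± 0.49, H2-Ab1 of 0.48 ± 0.52 and H2-T22 of 0.01 ± 0.26, with adjusted p of 1.0 each. The 10 class II genes all had a positive interaction, between 0.32 and 1.18, whereas the K and D class I genes lay between -0.11 and 0.22. Without WT low-fat replicate 1 the class II interactions lay between 0.02 and 0.81. None of these class II values was tested as a group, and 1 of the 33, Ciita, had an unadjusted p under 0.05, as had 4.86% of all genes.

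**Figure D5:**
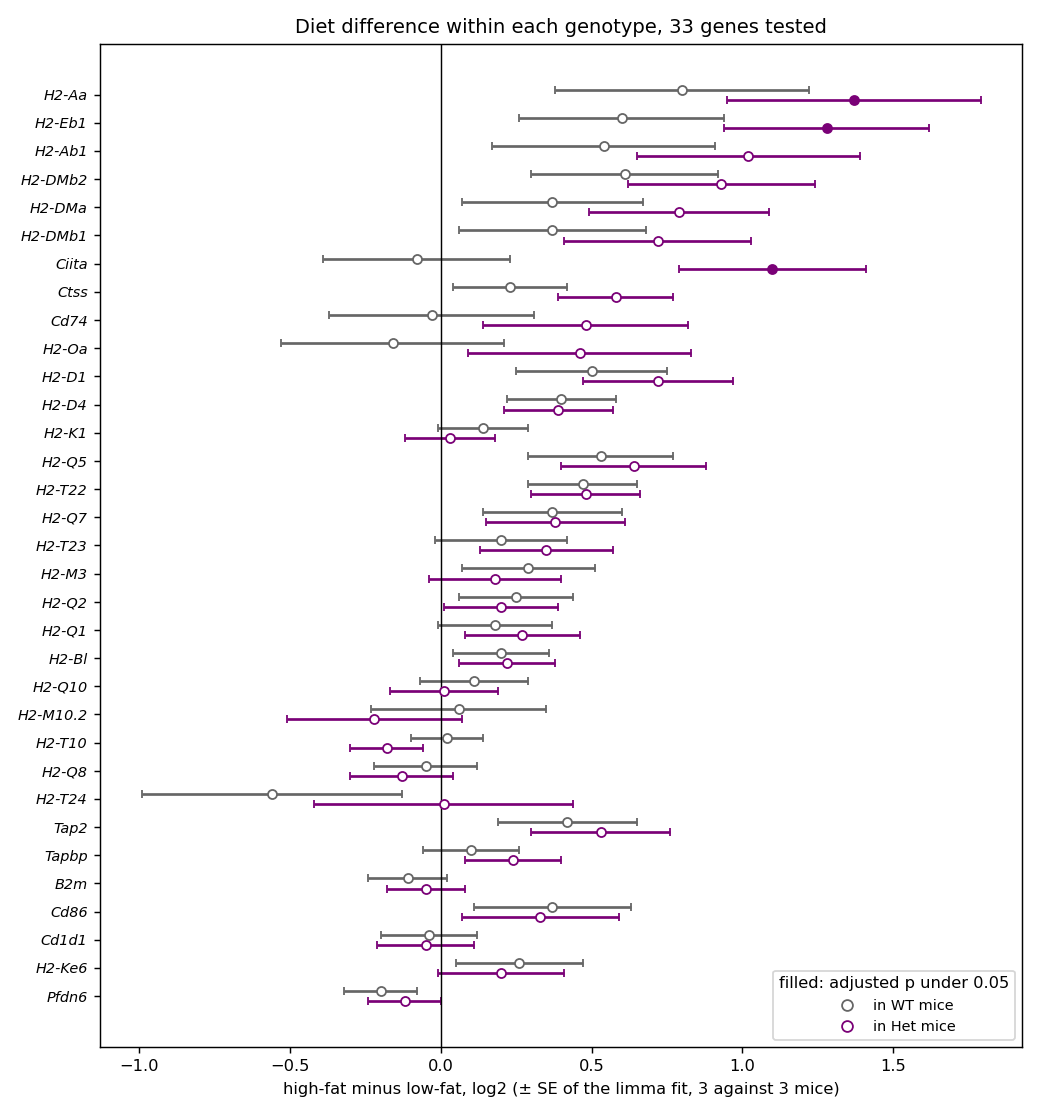
Difference between high-fat and low-fat livers within WT (grey) and Het (purple) mice for the 33 genes, on the log2 scale, with the SE of the limma fit and filled points for an adjusted p under 0.05. The purple points of the class II genes lie to the right of the grey ones with overlapping errors for all but Ciita, and those of H2-D4, H2-T22 and H2-Q7 lie on top of each other.

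Genotype itself moved none of the genes past the threshold. In high-fat livers, in low-fat livers and with both diets together 0 of 33 genes passed by limma, and so did 0.0% of all genes tested in each. At an unadjusted p under 0.05 there were 0, 1 and 0 members (8.66%, 2.0% and 4.84% of all genes), the 1 being Ciita on the low-fat diet, where Het was lower by -0.71 ± 0.31 (unadjusted p = 0.0417, adjusted p = 1.0). The Het and WT means over both diets differed by -0.30 to 0.16 across the 33 genes, with a median of -0.01.

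Of 26 other genes of the presentation pathway 24 were tested, and over both genotypes 5 rose and 2 fell (29.2%, near the 30.2% of all genes tested), with a median of 0.10. Those that rose were Tapbpl, a tapasin relative that edits class I peptides (0.65 ± 0.13, adjusted p = 0.00582), Psmb9, an immunoproteasome subunit (0.68 ± 0.17, 0.0148), and 3 lysosomal enzymes that prepare class II peptides. The latter were Ifi30, a thiol reductase (0.61 ± 0.13, 0.00763), Lgmn, an asparagine endopeptidase (0.51 ± 0.12, 0.00969), and Ctsd, cathepsin D (0.46 ± 0.10, 0.00638). Tapbpl was between 1.82 and 2.29 in high-fat and between 1.09 and 1.80 in low-fat livers, with no overlap. Erap1, which trims class I peptides, fell by 0.44 ± 0.10 (adjusted p = 0.00734) and Pdia3, a disulfide isomerase of the loading complex, by 0.31 ± 0.09 (0.0244). Tap1, the partner of Tap2, differed by 0.26 ± 0.15 (adjusted p = 0.224) and Psmb8 by 0.26 ± 0.14 (0.174). Rfx5, Rfxap and Rfxank, subunits of the X box factor, differed by -0.04 to 0.03. The same 7 genes passed in Het mice (29.2%, where 15.9% of all genes changed), with Psmb9 at 0.93 ± 0.24 and Erap1 at -0.60 ± 0.14, and 0 of the 24 passed in WT mice, where 5.92% of all genes changed and 4 of the 24 had an unadjusted p under 0.05. The difference between the genotypes passed the interaction test for none of the genes tested.

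Interferon-gamma is the classical inducer of Ciita and of class I genes, and of 13 genes of its signalling 2 rose and 1 fell over both genotypes (23.1%, against 30.2% of all genes). Irf8, a factor of myeloid cells, rose by 0.48 ± 0.11 (adjusted p = 0.00971) and Ifngr2, a receptor chain, by 0.35 ± 0.11 (0.0305), while Irf2, an antagonist of Irf1, fell by 1.02 ± 0.21 (0.00583). Irf1 (-0.13 ± 0.14), Gbp2 (0.32 ± 0.15) and Cxcl9 (0.36 ± 0.18) did not pass.

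Markers of cells that carry class II molecules were read beside these genes, and their part in the results was not tested. Of 11 markers of macrophages and Kupffer cells, 3 rose and 1 fell (36.4%, against 30.2% of all genes). Gpnmb rose by 3.64 ± 0.43, Trem2 by 2.01 ± 0.29 and Cd68 by 0.61 ± 0.14, while Timd4, a marker of resident Kupffer cells, fell by 1.72 ± 0.44, and Clec4f, Vsig4 and Adgre1 differed by -0.05 to 0.22 without passing, as did Marco with -1.44 ± 0.69 (adjusted p = 0.139). The Gpnmb probe was well above background on 1 of 3 WT and 2 of 3 Het low-fat arrays, so its difference is measured partly against background. The mean log2 level over the 11 markers was 0.57 to 1.33 on high-fat and 0.53 to 1.22 on low-fat arrays, with medians of 1.17 and 0.68. Over the 9 markers other than Gpnmb and Trem2, with Timd4 and Marco kept, the medians were 1.47 and 1.53. Gpnmb and Trem2 were left out because their differences were the largest, so the loss of the gap follows from that choice.

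Of 7 tested dendritic cell markers 2 rose, Itgax by 1.65 ± 0.28 and Ccr7 by 1.02 ± 0.15, and Zbtb46 fell by 0.38 ± 0.10 (42.9%, against 30.2% of all genes). Their mean level was -3.19 to -2.44 on high-fat and -3.65 to -3.14 on low-fat arrays. Cd209a was well above background on no array. Itgax and Ccr7 were higher on all 6 high-fat than on all 6 low-fat arrays, as were 6.01% of all genes, and Ccr7 cleared background on only 1 of the 3 low-fat arrays of Het mice.

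Of 4 tested B cell markers 0 rose or fell by limma, where 30.2% of all genes changed. An unadjusted p under 0.05 was found by limma for 1 of the 4, and for 7305 of all 17042 genes. The mean level of the 4 markers was -2.78 to -2.30 on high-fat and -2.86 to -1.32 on low-fat arrays, the highest being WT low-fat replicate 1. Of 6 T cell markers 2 fell (33.3%, against 30.2% of all genes), Cd3e by 1.02 ± 0.21 and Cd4 by 0.51 ± 0.15, with mean levels of -3.89 to -3.08 and -3.86 to -2.65. WT low-fat replicate 1 held the highest T cell mean as well. The liver's endothelial cells also carry class II molecules, and of their 6 markers Lyve1 rose by 0.98 ± 0.23 and Kdr fell by 0.55 ± 0.10 (33.3%, against 30.2% of all genes), with mean levels of 1.47 to 1.65 and 1.41 to 1.60. Of 5 tested hepatocyte markers Cps1 and Ttr fell (40.0%, against 30.2% of all genes), and the mean level was 6.45 to 6.79 on high-fat and 6.75 to 7.08 on low-fat arrays.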

How the data were processed

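Liver RNA of 12 mice was labelled with Cy3 and hybridised to Agilent 60-base arrays, 1 per mouse. The deposited intensity values came from the scanner software (Feature Extraction 9.5 of Agilent, as the submitters' processing notes name it) and are background-subtracted processed signals with no normalization between arrays, per the file headers. The deposited series table holds the same intensity values (largest log2 difference 0.0), so it served as no alternative. Flags for outlying, saturated and well-above-background spots come from the deposited files, per the file headers.

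From these values, 1344 outlier-flagged spots over all arrays and all control spots were left out. The log2 of each array's 75th percentile over non-control spots was subtracted, and spots of a probe were averaged. Probes that cleared background on all 3 arrays of some group and were measured on 2 or more arrays of each group were kept, 25296 probes, and the brightest per gene was tested, 17042 genes. Probes were named through accessions (22951), current symbols (6659), older symbols (3109) or the design's name (8455), with the RefSeq table of GRCm38.p6. Group means were fitted over all 12 arrays with limma 3.58.1 in R 4.3.3, with two-sided moderated tests adjusted by Benjamini-Hochberg over all genes at 0.05, after testing on simulated data. Residual degrees of freedom were 8 and prior ones 2.8, and 3 arrays per group limit the precision.

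The genes named are every member that passed in any comparison, a fixed list of the main presentation genes whether or not they passed, and each listed pathway gene that passed. Marker genes, and pathway and signalling genes that did not pass, were named after their values were seen. The members, lists and tests were chosen with earlier results of these data known. Alternatives covered normalization, background correction, the filter, slides, replicate numbers and each array left out, and array brightness was added after the data were seen. Same-numbered arrays did not deviate together (correlations of -0.467 to 0.456), so replicate numbers do not pair them.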

Additional observations from a re-analysis of the deposited data

How the results depend on the processing

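Of the 13 calls above, all kept their direction under each alternative run. Over both genotypes the count of 10 called genes was 3 with no filter on dim probes, 18 with slide as a random block (which included the 10), 7 with the replicate block and 3 to 11 with 1 array left out. The 3 were H2-Aa, H2-Eb1 and H2-T22, which passed in all 8 settings and without each of the 12 arrays. In Het mice the count of 3 was 7 under quantile normalization, 5 with scaling to the median, 6 with normexp background correction (2 of the 3 among them), 0 with no filter, 9 with slide as a block, 6 with brightness as a block (2 of the 3 among them), 2 with only the groups compared, 2 with the replicate block and 0 to 4 with 1 array left out. In WT mice it was 1 with slide and 1 with brightness as a block, and 0 otherwise. With no filter 27668 genes entered the adjustment in place of 17042. The other causes were not tested. The genotype and interaction counts were 0 under every alternative run. The consensus correlation within slides was -0.177. Each slide held arrays of 1 diet only, so the slide block cannot take slide out of a diet difference. A negative correlation also narrows the SE of a difference between slides, so the diet counts with this block are no stricter check. The replicate block used numbers that do not pair the mice and is given for completeness. Signal over background limits the set itself, since 12 of the 45 genes could not be tested.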
